A study of Mus musculus with 48 samples.

Results

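The mouse mitochondrial genome carries 37 genes, and all 37 were among the 56748 gene identifiers counted in each library. The members were chosen by their gene symbol, which had to start with mt-. They comprise 13 genes for proteins of the respiratory chain and ATP synthase, 2 genes for the ribosomal RNAs of the mitochondrial ribosome, and 22 transfer RNA (tRNA) genes. The 48 libraries were bulk RNA-seq of 3 tissues of male littermate mice: liver, brown fat (BAT) and the white fat of the epididymal depot (eWAT). For 12 weeks all mice, controls included, ate a Western diet that held 0.2% cholesterol and 21% fat from milk. The compared genotypes were hepAGT+/+ (here WT) and hepAGT-/- (here KO), the latter lacking angiotensinogen in hepatocytes per the title of the study. Mice were housed at room temperature of 20 to 22 °C (RT) or at thermoneutrality of 30 °C (TN), which gave 12 groups of 4 libraries. The Cre line or promoter behind the deletion and the age of the mice are not given in the sources used here. The design asked how genotype and housing temperature each changed RNA levels within a tissue. Libraries are named by the replicate number in their label, and where nothing shows more than separate animals, the p-values measure the spread between these animals.

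Mitochondrial DNA is a small circle that is copied and transcribed inside the organelle by factors encoded in the nucleus. Both strands are transcribed into long precursors, and the tRNAs that lie between most other genes are cut out to release the messenger and ribosomal RNAs. The proteins are core subunits of complexes I, III and IV and of ATP synthase (complex V), while complex II is wholly nuclear. Brown fat is rich in mitochondria and burns fuel for heat in the cold, whereas at thermoneutrality that demand is low.

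The genes are packed so tightly that they share bases, which matters for a count per gene. On the mitochondrial chromosome of GRCm38, 28 members lie on the plus strand and 9 on the minus strand. In the GENCODE M21 annotation, 9 pairs of neighbours overlap. The longest overlap is the 43 bases shared by mt-Atp8 (chrM:7766-7969, plus strand) and mt-Atp6 (chrM:7927-8607, plus strand), which encode the small and the large membrane subunit of ATP synthase. On opposite strands, mt-Nd5 (chrM:11742-13565, plus) and mt-Nd6 (chrM:13552-14070, minus) share 14 bases, mt-Co1 (chrM:5328-6872, plus) and mt-Ts1 (chrM:6870-6938, minus) share 3, and mt-Ti and mt-Tq share 3. Whether reads were counted by strand is not given in the sources used here, so a read within such an overlap, or antisense to a member, cannot be assigned with certainty. To show such overlaps, 3 members are printed from the GENCODE M21 transcripts, 5′ to 3′ along their own strand; mt-Tw and mt-Tq return below among the genes called in BAT. In mt-Atp8 the capitals mark the 43 bases shared with mt-Atp6. In mt-Tw (tRNA for tryptophan, chrM:4950-5016, plus) they mark the 2 bases shared with mt-Nd2. In mt-Tq (tRNA for glutamine, chrM:3772-3842, minus) they mark the 3 bases that overlap mt-Ti on the other strand.
mt-Atp8: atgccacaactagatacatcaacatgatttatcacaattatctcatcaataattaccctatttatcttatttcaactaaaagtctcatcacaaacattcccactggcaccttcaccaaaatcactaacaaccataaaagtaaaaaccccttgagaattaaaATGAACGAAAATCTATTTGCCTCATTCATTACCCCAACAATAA
mt-Tw: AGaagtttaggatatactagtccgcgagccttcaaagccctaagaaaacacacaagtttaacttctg
mt-Tq: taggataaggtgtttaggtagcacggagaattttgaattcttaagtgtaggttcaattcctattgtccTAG

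A stretch of nuclear chromosome 1 holds near-identical copies of 7 of the protein genes. The copies are annotated as unprocessed pseudogenes on the minus strand within chr1:24611535-24616197, a span of 4663 bases, and they follow each other in the order of their mitochondrial counterparts. Gm28661 matched mt-Co2 over 681 aligned bases with 0 mismatches, Gm10925 matched mt-Atp6 over 678 with 0, Gm28437 matched mt-Co3 over 783 with 0, and Gm10222 matched mt-Nd4l over 294 with 0. Gm28439 matched 876 of the 1378 bases of mt-Nd4 with 0 mismatches, and Gm29216 matched 492 of the 1545 bases of mt-Co1 with 6. Gm28438 differed from mt-Nd3 at 1 of 345 aligned bases. That substitution is T3C, with positions counted from 1 at the 5′ end of the gene, and the first 33 bases of both are shown with the differing base in capitals.
mt-Nd3: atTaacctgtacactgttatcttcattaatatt
Gm28438: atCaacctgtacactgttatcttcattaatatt
A read from such a stretch fits both places, so the counts of these members depend on how reads with several matches were treated, which is not given in the sources used here. Of all 100-base windows of each gene, the share also found in a nuclear transcript was 99.9% for mt-Co3, 99.5% for mt-Co2 and mt-Atp6, 98.5% for mt-Nd4l, 97.6% for mt-Nd3, 60.8% for mt-Nd4, 30.8% for mt-Co1 and 3.19% for mt-Nd2. For mt-Nd1, mt-Nd5, mt-Nd6, mt-Cytb, mt-Atp8 and both rRNA genes it was 0%.

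Library totals ran from 23711728 to 43687848 counts. The targeted gene, Agt, was at 125 to 207 CPM (counts-per-million) in KO livers and at 276 to 504 in WT livers, with no overlap. Levels below are CPM scaled by the TMM method within a tissue unless plain totals are named, and changes are log2 differences from edgeR's quasi-likelihood test, called at a Benjamini-Hochberg adjusted p below 0.05 over all genes tested in that tissue. Markers of each labelled tissue were high in it: 5 hepatocyte markers summed to 47398 to 84746 CPM in liver, 6 brown adipocyte markers to 3570 to 13825 in BAT, and 5 mature adipocyte markers to 10254 to 15061 in eWAT. Some BAT libraries also held skeletal muscle RNA. The 8 muscle markers summed to over 1000 CPM in 6 of 16 BAT libraries (KO RT 14 and 19, KO TN 2 and 5, WT TN 6 and 24), at 1045 to 7357 CPM, against 1.34 to 491 CPM in the other 10. In BAT, WT RT 12 and WT TN 1 stood apart from the other libraries of their groups: the TMM factor of WT RT 12 was 0.977 against 0.751 to 0.758 in the other 3, and WT TN 1 had the highest mitochondrial share of its group. Gene tests within BAT are therefore also given without the muscle-high libraries, and without WT RT 12 and WT TN 1. Shares and comparisons between tissues were not recomputed without these sets. In bulk tissue, fewer cells of a type and less RNA per cell cannot be told apart.

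Mitochondrial transcripts took a far larger share of the counts in BAT than in liver or eWAT. Over 16 libraries per tissue, the 37 genes took 24.2% ± 4.67 (SD) of the library total in BAT, with a range of 17.2% to 33.9%. The share was 4.75% ± 1.13 in eWAT, from 3.14% to 6.81%, and 3.68% ± 0.590 in liver, from 2.74% to 4.86%. The BAT libraries did not overlap with those of the other tissues, while eWAT and liver overlapped. Protein genes carried 95.2% to 99.1% of the mitochondrial counts in every library. The rRNAs, which build the mitochondrial ribosome and dominate total mitochondrial RNA in the cell, took 0.697% of the library total in BAT, 0.0967% in eWAT and 0.0726% in liver. The tRNAs took 0.0179%, 0.00180% and 0.00196%. Libraries described by the labels as mRNA-seq are not built to capture all RNA classes alike, so shares of the 3 classes are not their proportions in the tissue.

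**Figure D1:**
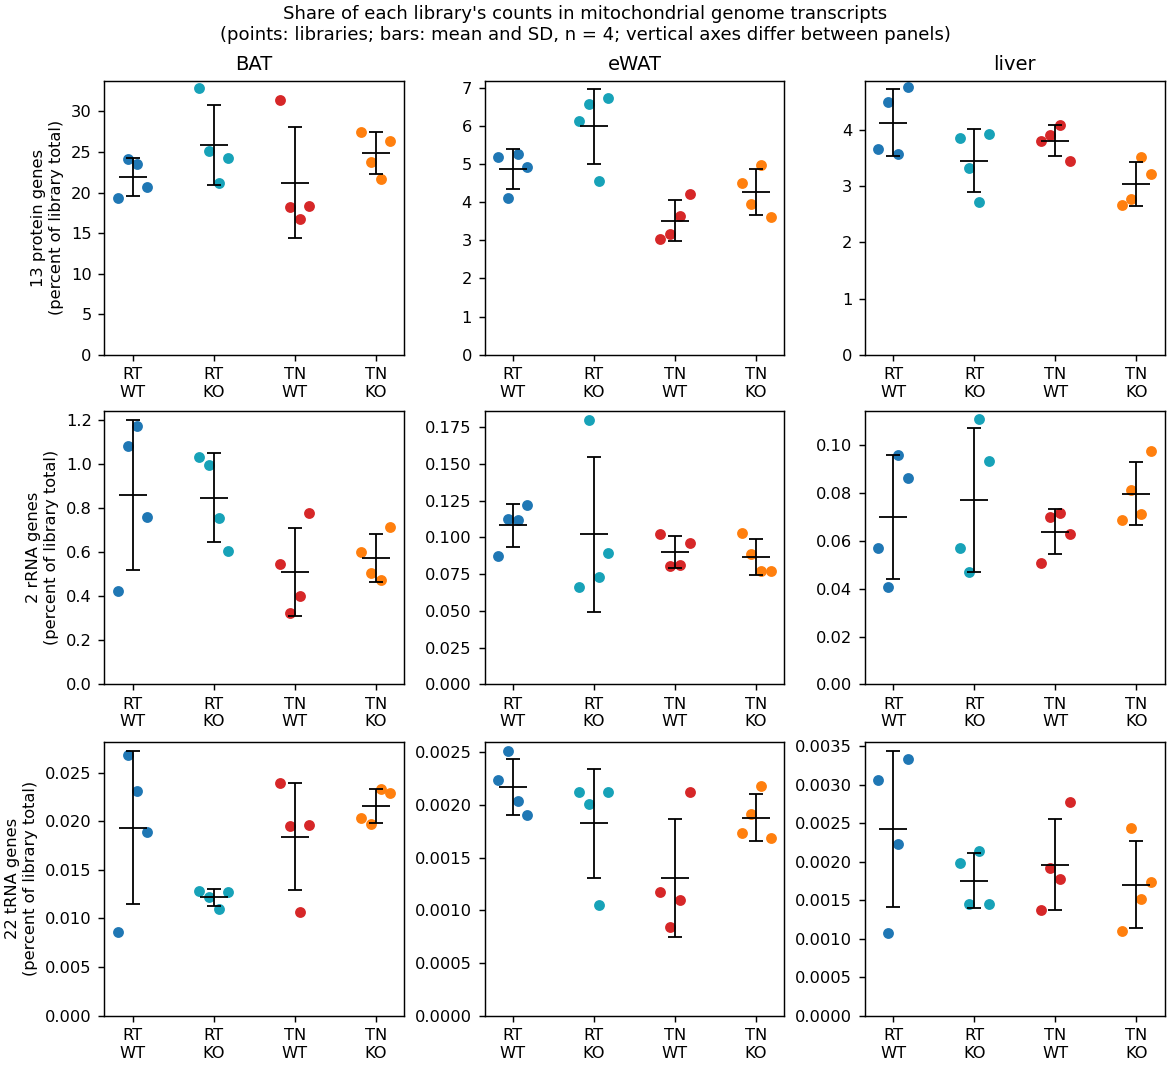
Share of the library total (percent) taken by the protein, rRNA and tRNA genes of the mitochondrial genome (rows of panels) in BAT, eWAT and liver (columns), with points for libraries and bars for the mean ± SD of each group (n = 4); each panel has its own axis from 0. BAT lies far above eWAT and liver in every row, with 24.2%, 4.75% and 3.68% for all 37 genes.

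In eWAT the mean total share was lower at TN by more than the SD of either group in both genotypes. In BAT the share was 22.8% ± 2.65 in WT RT, 21.7% ± 6.89 in WT TN, 26.7% ± 5.09 in KO RT and 25.4% ± 2.67 in KO TN (SD, n = 4 each). In eWAT the same order gave 4.97% ± 0.516, 3.60% ± 0.534, 6.09% ± 1.01 and 4.34% ± 0.602. In liver it gave 4.20% ± 0.592, 3.88% ± 0.276, 3.54% ± 0.553 and 3.13% ± 0.398. The groups compared overlapped in the total, protein and rRNA shares of each tissue, as did the tRNA shares in liver and eWAT. The exception was the tRNA share in BAT of KO mice, which was 0.0110% to 0.0128% at RT and 0.0198% to 0.0233% at TN, a log2 ratio of 0.83. No test was run on these sums, and with 4 libraries a group a single separation among so many comparisons can arise by chance. The BAT rRNA share was lower at TN in both genotypes, at 0.511% ± 0.199 against 0.858% ± 0.340 in WT and 0.574% ± 0.108 against 0.847% ± 0.203 in KO, with overlapping libraries.

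Per length, the order of the 13 protein genes was much alike in the 3 tissues and spanned orders of magnitude. Counts were divided by gene length here (median CPM per kilobase over 16 libraries). The catalytic core of complex IV, mt-Co1, was highest, at 53634 in BAT, 10532 in eWAT and 9677 in liver. The complex III subunit mt-Cytb came next, at 86.9%, 78.0% and 62.7% of mt-Co1. Complex I subunits followed, with mt-Nd1 at 28802, mt-Nd2 at 24484, mt-Nd4 at 15142 and mt-Nd5 at 8787 CPM per kilobase in BAT. The only protein gene on the minus strand, mt-Nd6 of complex I, was at 2613, close to the rRNAs mt-Rnr1 at 2620 and mt-Rnr2 at 2606. In each tissue the medians of these 7 genes and both rRNAs lay above those of the other 6.

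**Figure D2:**
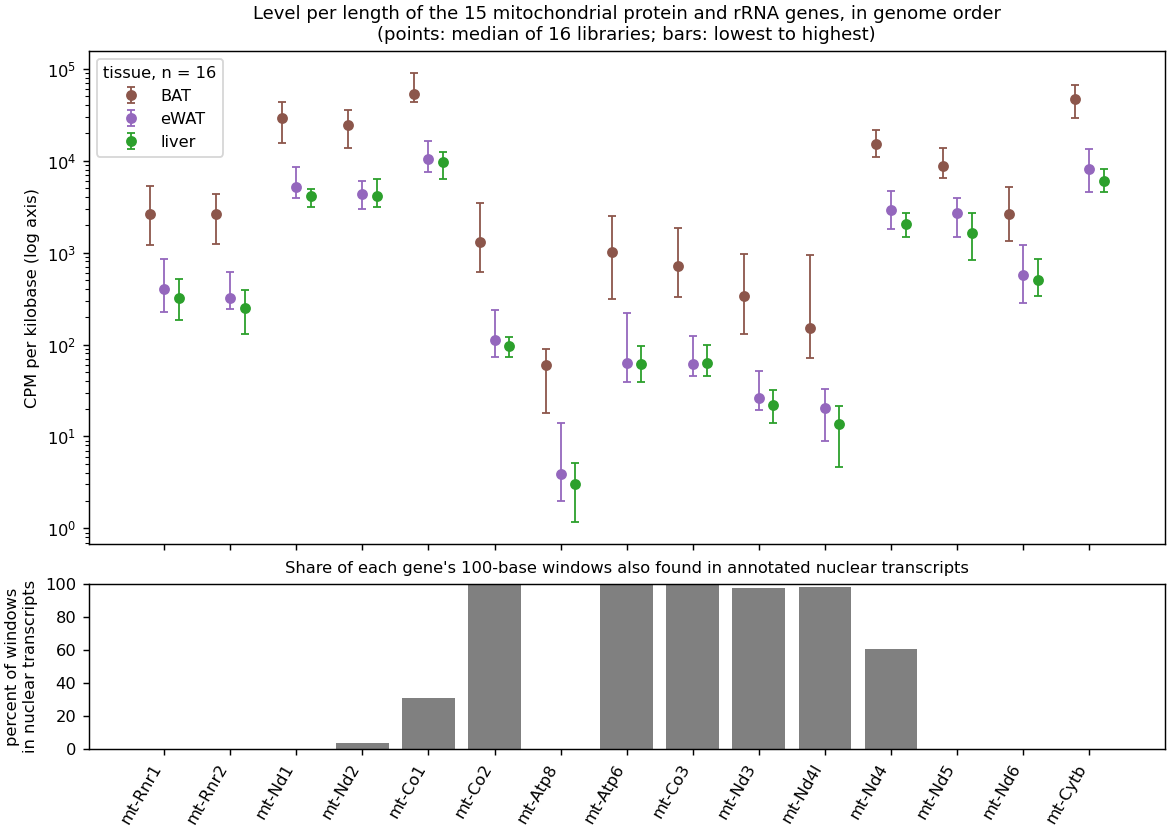
CPM per kilobase of gene length (log axis) of the 13 protein and 2 rRNA genes in genome order, with points for the median of 16 libraries per tissue and bars from the lowest to the highest, above the percent of 100-base windows of each gene that also occur in nuclear transcripts. mt-Co1 and mt-Cytb lead in each tissue, and the run from mt-Co2 to mt-Nd4l lies far below them and over most of the tall bars of the lower panel.

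The other 6 protein genes, of complexes I, IV and V, were far below these. In BAT, mt-Co2 (the subunit of complex IV that takes electrons from cytochrome c) was at 1312 CPM per kilobase, mt-Atp6 at 1005, mt-Co3 at 713, mt-Nd3 at 337, mt-Nd4l at 150.1 and mt-Atp8 at 59.8. Together these 6 of 13 genes held 0.667% to 1.92% of the protein-gene counts in BAT, 0.344% to 0.605% in liver and 0.342% to 0.643% in eWAT. Of these, 5 are the genes with over 90% of their windows in a nuclear transcript. mt-Atp8, which had no such window, was the lowest of all at 0.112% of mt-Co1 in BAT. The search covered annotated transcripts only. The bases between Gm10925 (to chr1:24614651) and Gm28661 (from chr1:24614885), copies of the neighbours of mt-Atp8, were not searched. The reads were not available here, and whether the 6 genes are low in the tissue or in the counting was not tested.

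The nuclear copies carried counts of the same size as the low members. Median levels on plain totals were 449 CPM for Gm28661 against 898 for mt-Co2 in BAT, and 54.4 against 65.3 in liver. For Gm28437 and mt-Co3 they were 580 and 559 CPM in BAT and 53.2 and 49.3 in liver. Gm10925 exceeded mt-Atp6 in liver, at 63.0 against 41.4, and in eWAT, at 73.2 against 42.5, but not in BAT, at 493 against 685. Copies of the abundant members stayed small beside them: Gm28439 was at 135 CPM in BAT against 20866 for mt-Nd4, and Gm29216 at 523 against 82864 for mt-Co1. For the low genes, median sums of member and copy stayed far below mt-Co1 per length. The sum for mt-Co2 was 3.43% of mt-Co1 per length in BAT, 1.88% in liver and 2.04% in eWAT. The sums for mt-Atp6, mt-Co3, mt-Nd3 and mt-Nd4l in BAT were 2.99%, 2.47%, 1.16% and 0.406%. In single BAT libraries the sum reached 15.5% for mt-Nd3 and 8.03% for mt-Co2. A read that fits both places may be in neither count, so these sums need not hold all reads of a gene. The reason for the low levels was not tested. Values for these 5 members are therefore uncertain throughout, and whether mt-Atp8 has a copy outside annotated transcripts was not examined.

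Transfer RNAs were counted sparsely and unevenly by strand. Only 8 of 22 passed the filter on low counts in at least 1 tissue: mt-Tq, mt-Ts1, mt-Tp, mt-Te, mt-Ty and mt-Ta from the minus strand, and mt-Tw and mt-Tt from the plus strand. That is 6 of the 8 minus-strand tRNA genes and 2 of the 14 on the plus strand. Over all 48 libraries mt-Tq had 30268 counts, mt-Ts1 20726, mt-Tp 19520, mt-Tw 15841, mt-Tt 12382, mt-Te 7199, mt-Ty 1850 and mt-Ta 930, and these 8 held 98.6% to 100% of the tRNA counts of a library. On the plus strand 8 tRNA genes had 0 counts in all 48 libraries. A few counts came from 1 library each, with 37 of mt-Ti in BAT WT TN 7, 61 of mt-Tn in BAT WT RT 18, 86 of mt-Th in BAT KO TN 3 and 3 of mt-Tc. Tests covered 23 members in BAT and eWAT and 22 in liver, where mt-Ta fell below the filter. No p or median below covers the other 14 or 15 members.

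Between tissues, members of every class were higher in BAT. Of 21910 genes tested, 68.6% differed between BAT and liver (37% higher and 31.6% lower in BAT) and 60.3% between BAT and eWAT (29.2% higher and 31.1% lower), with medians over all genes of 0.08 and -0.02. All 23 members tested were higher in BAT than in liver and higher in BAT than in eWAT, with median log2 differences of 2.99 and 3.08. The protein genes had medians of 2.82 against liver and 2.87 against eWAT, the rRNAs 3.10 and 3.22, and the 8 tRNAs 3.15 and 3.41. The abundant subunits differed by like amounts. The difference from liver was 2.52 (SE 0.11) for mt-Co1, 2.73 for mt-Cytb, 2.68 for mt-Nd1, 2.42 for mt-Nd2, 2.82 for mt-Nd4, 2.44 for mt-Nd5 and 2.38 for mt-Nd6. The 6 low genes gave larger values, from 3.60 for mt-Co3 to 4.08 for mt-Atp8. Among tRNAs the difference from liver ranged from 1.64 for mt-Te to 4.66 for mt-Tt (tRNA for threonine).

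Nuclear genes for subunits of complexes I, III, IV and V followed the same direction. Of 82 tested, 78 were higher in BAT than in liver and 3 lower, with a median log2 difference of 1.73, and 79 were higher and 3 lower than in eWAT, with a median of 2.10. The liver and eWAT comparison, in which 73.8% of genes were called (35.5% higher and 38.3% lower in liver), depended on the scaling. With TMM, 7 members were higher in liver, among them mt-Tw by 1.32, mt-Te by 1.25, mt-Nd2 by 0.46 and mt-Co1 by 0.30, and 0 were lower. With plain library totals 2 were higher and 10 lower, and mt-Nd2 and mt-Co1 changed sign to -0.068 and -0.23, while the median of all genes moved from -0.05 to -0.57.

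In BAT of WT mice, 9 members were lower and 1 higher at TN than at RT. The share of all 18032 tested genes called in this comparison was 32.5% (15.9% higher and 16.7% lower), and the members' share of 10 in 23 is to be read against it. The median over members was -0.87, against 0.11 over all genes. By role, 6 of the 13 protein genes fell: mt-Nd1, mt-Nd2 and mt-Nd6 of complex I, mt-Cytb of complex III, mt-Co2 of complex IV and mt-Atp6 of complex V. Both rRNAs fell, as did mt-Tq, and mt-Tw rose. The remaining members gave values from -1.25 for mt-Ta to 0.34 for mt-Nd3 that did not pass.

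The largest called falls were in subunit genes of complexes V and IV. mt-Atp6 was at 893, 2237, 1500.4 and 927 CPM in WT RT libraries 12, 15, 17 and 18, and at 543, 162, 219 and 244 CPM in WT TN libraries 1, 6, 7 and 24. All 4 TN libraries lay below all 4 RT libraries, with a change of -2.25 (SE 0.57, edgeR adjusted p = 0.00806). mt-Co2 was at 546, 2801, 1997 and 2509 CPM at RT and at 728, 361, 319 and 468 CPM at TN. Library 12 lay within the TN range and the other 3 RT libraries far above it, and the change was -2.06 (SE 0.51, edgeR adjusted p = 0.00674). Their nuclear copies fell too, with -1.31 (SE 0.35, edgeR adjusted p = 0.00858) for Gm28661 and -0.86 (SE 0.30, edgeR adjusted p = 0.0347) for Gm10925. mt-Co1, the main subunit of complex IV and the most abundant member, was at 74890, 104379, 101807 and 87665 CPM at RT and at 133763, 62192, 57787 and 65903 CPM at TN. TN library 1 was the highest of the 8 and the other 3 the lowest, and the change of -0.21 (edgeR adjusted p = 0.577) did not pass.

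Complex I and III genes and the rRNAs had the same outline. mt-Nd6 was at 710, 3548, 3389 and 3202 CPM at RT and at 1061, 781, 529 and 1271 CPM at TN, so that RT library 12 sat among the TN libraries. Its change was -1.57 (SE 0.38, edgeR adjusted p = 0.00481). mt-Rnr1, the RNA of the small mitochondrial ribosomal subunit, was at 1845, 6154, 6447 and 4018 CPM at RT and at 1996, 949, 1356 and 2470 CPM at TN. RT library 12 again lay within the TN range, and the change was -1.45 (SE 0.37, edgeR adjusted p = 0.00672). For the large-subunit RNA mt-Rnr2 the change was -1.19 (SE 0.40, edgeR adjusted p = 0.0311). mt-Cytb was at 43981, 70255, 72988 and 61215 CPM at RT and at 60668, 26263, 24950 and 34931 CPM at TN. The groups overlapped through RT library 12 and TN library 1, and the change was -0.76 (SE 0.28, edgeR adjusted p = 0.0426). Changes of mt-Nd1 and mt-Nd2 were -1.003 (edgeR adjusted p = 0.0133) and -0.86 (edgeR adjusted p = 0.0199), while mt-Nd4 at -0.60 and mt-Nd5 at -0.50 did not pass.

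Neighbours that share 2 bases moved in opposite directions. mt-Tw, whose sequence starts in the last bases of mt-Nd2, was at 8.41, 18.2, 22.3 and 23.7 CPM at RT and at 63.5, 29.9, 21.2 and 45.3 CPM at TN in WT mice. TN libraries 1, 6 and 24 were above all RT libraries and library 7 was within their range, with a change of 1.14 (SE 0.41, edgeR adjusted p = 0.0471). The minus-strand mt-Tq fell by 1.19 on the log2 scale (SE 0.38, edgeR adjusted p = 0.0282).

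**Figure D3:**
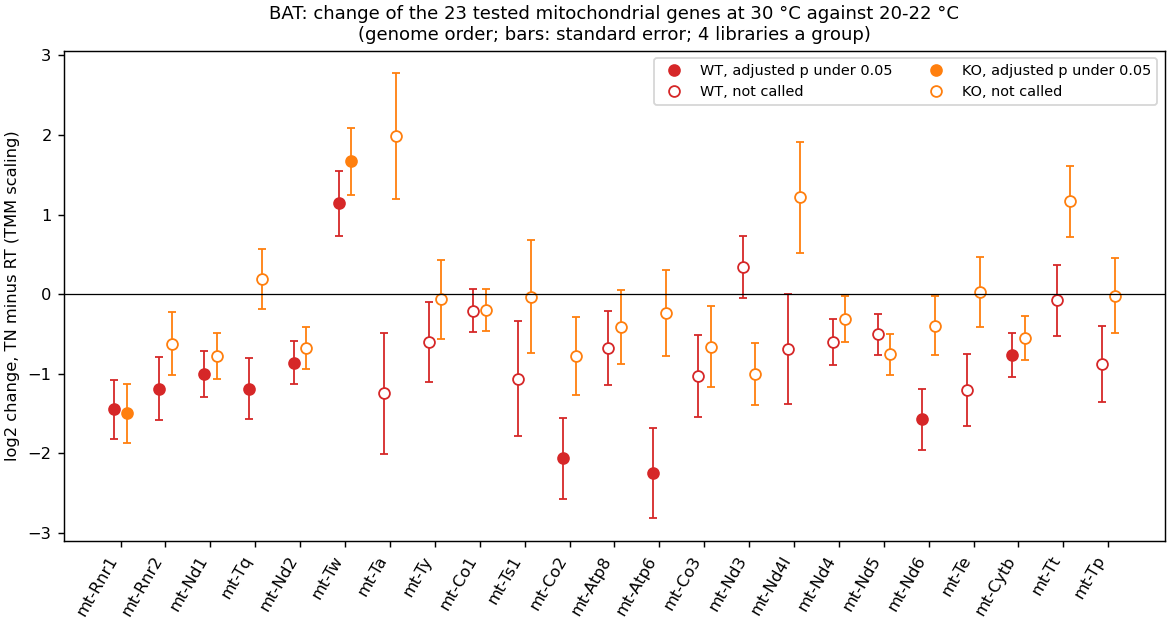
Log2 change at TN against RT in BAT for the 23 members tested, in genome order, for WT and KO mice, with bars for the SE and filled points for an edgeR adjusted p below 0.05. In WT 9 members are called lower and mt-Tw higher, and in KO mt-Rnr1 is called lower and mt-Tw higher.

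How many WT members were called rested on single libraries and on the scaling. Leaving out 1 library at a time gave 4 calls without WT TN 6, 5 without WT TN 7, WT RT 15 or WT RT 17, 12 without WT TN 1 and 13 without WT RT 12. The share of all genes called in each such fit is not given here, so these shifts may not be particular to the members. The calls of mt-Atp6, mt-Co2, mt-Nd6 and mt-Rnr1 held in each of these fits. WT RT 12 and WT TN 1 were picked after their values were seen. Without both, 16 members were lower, against 30.1% of all genes called. mt-Co1 was among them at -0.63 (SE 0.22, edgeR adjusted p = 0.0432). WT TN 1 was the highest WT library in mt-Co1, so leaving it out lowered that change by itself. Without the 6 libraries high in muscle markers, 2 were lower, mt-Rnr1 at -1.45 (edgeR adjusted p = 0.0258) and mt-Rnr2 at -1.35 (edgeR adjusted p = 0.0472), against 27.1% of all genes, while mt-Nd6 at -1.76, mt-Co2 at -1.89 and mt-Atp6 at -1.85 did not pass with 2 WT TN libraries left. With plain totals 4 were lower (mt-Nd6, mt-Atp6 at -1.74, mt-Co2 at -1.50 and mt-Rnr1 at -0.89) and mt-Tw higher. That scaling moved the median of all genes from 0.11 to 0.65 and turned the calls over all genes from 2864 higher and 3003 lower to 6780 higher and 995 lower. The gap between the median of the members and that of all genes was -0.99 with TMM and -0.9995 with plain totals. DESeq2 called 11 members and 36.8% of all genes.

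In BAT of KO mice 2 members were called between the same temperatures, against 15.2% of all genes (6.64% higher and 8.52% lower). mt-Rnr1 was at 4594, 3349, 3071 and 5843 CPM in KO RT libraries 10, 14, 19 and 9 and at 2023, 991, 1377 and 1590 CPM in KO TN libraries 2, 3, 4 and 5. The groups did not overlap, and the change was -1.49 (SE 0.37, edgeR adjusted p = 0.0112). mt-Tw was at 16.5, 9.14, 12.7 and 7.00 CPM at RT and at 26.5, 21.3, 52.7 and 43.5 CPM at TN, again with no overlap, and rose by 1.67 (SE 0.42, edgeR adjusted p = 0.0150). Both calls held when any 1 library was left out. Without the muscle-high libraries mt-Rnr1 kept its call at -2.10 (edgeR adjusted p = 0.0289) and mt-Tw did not, at 1.69 (edgeR adjusted p = 0.301), and without WT RT 12 and WT TN 1, which share the fit but not this comparison, 7 members were called against 15.4% of all genes.

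Other members of the KO comparison stayed short of the threshold. mt-Nd5 gave -0.76 (edgeR adjusted p = 0.0561), mt-Nd1 -0.78 (edgeR adjusted p = 0.0807), mt-Nd2 -0.68, mt-Cytb -0.55, mt-Nd4 -0.31, mt-Nd6 -0.40, mt-Co2 -0.78, mt-Atp6 -0.24 and mt-Co1 -0.20. The median was -0.31, against 0.04 for all genes. The largest values above 0 beside that of mt-Tw were 1.98 for mt-Ta, 1.22 for mt-Nd4l and 1.16 for mt-Tt. The tRNA mt-Tt was at 9.52 to 22.7 CPM at RT and at 26.7 to 36.7 CPM at TN. mt-Ta was at 0.170 to 0.698 and 1.26 to 2.47 CPM, without overlap in either gene. The share of all genes that separated in this way is not given here, so this may not be particular to the members. DESeq2 called 7 members here, and 19.1% of all genes. Plain totals called 3 higher and 1 lower, and moved the median of all genes to 0.42.

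The temperature response of members was not shown to differ between genotypes in BAT. The interaction test called 0 of 23 members and 0% of all genes in edgeR, with a lowest adjusted p of 0.457 among members. In that test 5 members and 1832 of all 18032 genes had an unadjusted p under 0.05. DESeq2 called 0 members and 0.116% of all genes. Between genotypes at RT, edgeR called 0 members and 0.0887% of all genes, and DESeq2 2 members and 5.33% of all genes. In edgeR 3 members and 3507 of all 18032 genes had an unadjusted p under 0.05. The lowest edgeR adjusted p was 0.128 for mt-Ta, at -2.48 in KO against WT, whose WT RT library 12 had 2 counts where the other 3 had 70 to 95. Without WT RT 12 and WT TN 1, which were picked after their values were seen, 3 of 23 members were lower in KO at RT. These were mt-Ta (-2.87), mt-Tq (-1.29) and mt-Nd6 (-1.09), against 9.67% of all genes called. WT RT 12 was the lowest WT RT library in mt-Ta and mt-Nd6, so leaving it out lowered their changes by itself. These calls are therefore no evidence of a genotype difference. At TN edgeR called 0 members and 0% of all genes, and DESeq2 0 members and 0.111% of all genes. In edgeR 2 members and 945 of all 18032 genes had an unadjusted p under 0.05.

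The share of each gene in the 13-gene sum needs no scaling between libraries, and for several genes in BAT it separated the temperatures. mt-Co1 took 37.9%, 32.7%, 32.5% and 32.2% of the sum in WT RT libraries 12, 15, 17 and 18 and 43.7%, 45.0%, 45.5% and 38.4% in WT TN libraries 1, 6, 7 and 24. All TN libraries were above all RT libraries, TN library 24 only just. In KO it took 34.6% ± 2.09 at RT and 41.1% ± 3.24 at TN (SD, n = 4), with 1 TN library at 36.5% below 1 RT library at 37.7%. Shares of 2 complex I genes lay the other way: mt-Nd1 took 13.1% ± 0.748 at RT and 9.64% ± 1.19 at TN in WT, and 12.7% ± 0.763 and 10.1% ± 0.385 in KO, with no overlap in either. For mt-Nd2 the shares were 11.6% and 9.41% in WT and 11.8% and 10.0% in KO, also with no overlap. Among the other complex I genes, mt-Nd4 took 9.27% and 9.24% in WT and mt-Nd5 7.23% and 7.62%, both with overlap. The small share of mt-Nd3 was higher at TN in WT, at 0.0345% and 0.0672%, without overlap. Its nuclear copy Gm28438 moved the other way in WT, by -5.15 (SE 1.72, edgeR adjusted p = 0.0367). The level of mt-Nd3 itself did not pass, at 0.34 (edgeR adjusted p = 0.53). How reads were split between gene and copy was not tested. mt-Cytb took 22.5% ± 0.556 and 19.7% ± 0.560 in WT, without overlap, and 22.4% and 21.0% in KO, with overlap. Shares of one sum are not independent of each other, 180 such comparisons were computed over genes, tissues and contrasts, and none was tested. The protein genes outside the 6 low ones make up only part of the 180, each compared in 4 ways in each of 3 tissues. For them, 11 comparisons over all tissues had no overlap. The number among the other genes is not given here. With 4 libraries a group, some comparisons separate by chance alone.

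**Figure D4:**
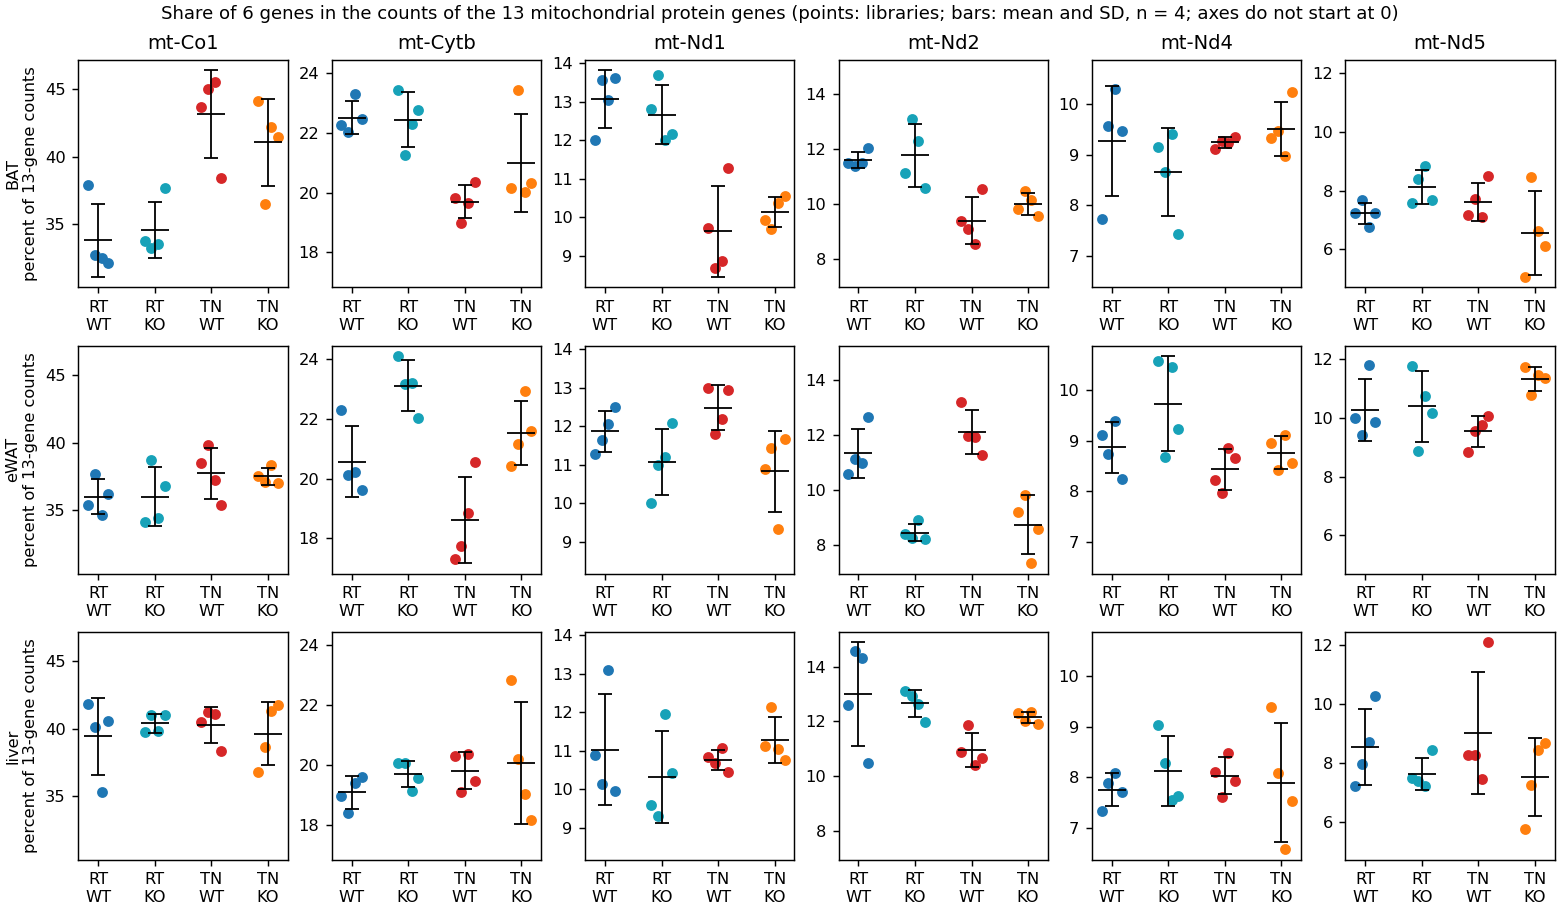
Percent of the counts of the 13 protein genes taken by 6 of them (columns) in each library of BAT, eWAT and liver (rows), with bars for the mean ± SD of each group (n = 4) on axes that do not start at 0. In BAT the mt-Co1 share is 33.8% at RT and 43.1% at TN in WT, and in eWAT the mt-Nd2 points of KO mice lie below those of WT mice at both temperatures.

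Most nuclear genes of the same complexes fell in BAT at TN in WT mice. In WT 76 of 81 tested genes for subunits of complexes I, III, IV and V were lower and 2 higher, with a median of -1.20, and in KO 50 were lower and 0 higher, with a median of -0.69. Among the largest WT changes were Ndufs8, a core iron-sulfur subunit of complex I, at -1.82, Ndufs6b at -1.84 and Uqcr10 of complex III at -1.70, whereas Ndufa4l2 (1.15) and Cox6b2 (1.03) rose. In KO they were Uqcrq at -1.26, Atp5mpl at -1.13 and Cox7a1 at -1.11. Complex II, which has no mitochondrial gene, had 4 of 4 genes lower in WT with a median of -1.15 and 3 of 4 in KO with a median of -0.66. In WT, Sdhd was at -1.35, Sdhb at -1.24 and Sdha at -1.06.

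Genes that make and handle mitochondrial RNA were lower as well. Of 30 tested, 23 fell in WT (median -0.74) and 10 in KO (median -0.39). Tfb2m, the factor that opens mitochondrial promoters, was at -1.19 in WT and -0.85 in KO. Ptcd3 of the mitochondrial ribosome was at -1.31 in WT, and Slirp, which with Lrpprc stabilises mitochondrial mRNAs, was at -1.10. Of 11 genes for copying mitochondrial DNA, 6 were lower and 1 higher in WT, with Endog at -1.18, Ssbp1 at -0.79 and Top1mt at -0.77 against Top3a at 0.63, and 1 was lower in KO (Ssbp1, -0.43). The 12 regulators of mitochondrial gene programmes were split in WT, with 3 lower (Esrra -0.87, Sirt3 -0.86, Gabpa -0.68) and 3 higher (Pprc1 0.93, Sirt1 0.64, Gabpb1 0.67), and in KO 1 was lower (Sirt3, -0.49). These counts stand beside 15.9% of all genes higher and 16.7% lower in WT, and 6.64% higher and 8.52% lower in KO. The KO counts of 1 of 11 and 1 of 12 were near that background.

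With plain totals these nuclear counts were smaller, and some turned. For complexes I, III, IV and V, 63 genes were then lower and 3 higher in WT and 20 lower and 2 higher in KO, and for RNA handling 5 were lower in WT and 3 in KO. Regulators gave 5 higher and 0 lower in WT and 2 higher and 0 lower in KO, and DNA copying 3 higher and 1 lower in WT. Without the muscle-high libraries, complexes I, III, IV and V had 9 called in KO, with a median of -0.67 close to the -0.69 with all libraries, against 4.67% of all genes, and 77 called in WT, with a median of -1.35. Other markers moved with temperature in BAT too. The 6 brown adipocyte markers summed to 8221 to 13825 CPM at RT and 3570 to 7595 at TN without overlap, and macrophage markers to 39.4 to 107 CPM at RT and 161 to 426 at TN. Their part in the changes of the members was not tested.

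In eWAT most protein genes had values above 0 for KO against WT and below 0 for TN against RT, and 1 member was called in all. Between genotypes at RT, 1 of 23 members was called, lower in KO, against 4.34% of all genes in either direction and 3.13% lower. DESeq2 called 1 member and 7.93% of all genes. mt-Tw was at 0.851, 0.391, 0.547 and 1.14 CPM in KO RT libraries 10, 16, 19 and 9 and at 2.77, 1.80, 2.67 and 2.38 CPM in WT RT libraries 12, 13, 15 and 18, on 14 to 35 counts a library in KO and 65 to 102 in WT. The groups did not overlap, and the change was -1.71 (SE 0.44, edgeR adjusted p = 0.0326). The call was lost when low counts were not filtered, in a fit to the 8 libraries compared, and without KO RT 10 or 19 or WT RT 12, 13, 15 or 18. Without KO RT 16 it gave way to 2 members called higher. Protein genes had a median of 0.42, with 11 of 13 above 0 and mt-Atp8 highest among them in size at 1.36 (edgeR adjusted p = 0.151).

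At TN the genotype comparison in eWAT called 0 members in edgeR, against 0.586% of all genes, and 0 in DESeq2, against 3.59%. In edgeR 3 members and 2603 of all 18933 genes had an unadjusted p under 0.05. The protein-gene median was 0.47, with 12 of 13 above 0. The exception at both temperatures among the abundant genes was mt-Nd2, at -0.13 at RT and -0.24 at TN (edgeR adjusted p = 0.764 and 0.569). Within the 13-gene sum it stood out: mt-Nd2 took 8.26%, 8.91%, 8.25% and 8.41% in KO RT libraries 10, 16, 19 and 9 and 10.6%, 11.1%, 11.0% and 12.7% in WT RT libraries 12, 13, 15 and 18. At TN it took 8.60%, 9.23%, 9.84% and 7.35% in KO libraries 21, 3, 4 and 5 and 11.3%, 13.2%, 12.0% and 12.0% in WT libraries 23, 6, 7 and 8. No KO library reached the lowest WT library at either temperature. The mt-Co1 share was 36.0% in both genotypes at RT. In BAT the mt-Nd2 shares of the genotypes overlapped at both temperatures, and in liver at TN the KO share was higher, at 12.1% against 11.0%, without overlap. This gene was singled out after its values were seen, and no test was run.

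Between temperatures in eWAT the protein genes were lower at TN in both genotypes without passing the test. In WT 0 members and 0% of all genes were called in edgeR, and 0 members and 0.502% of all genes in DESeq2. In edgeR 8 members and 1324 of all 18933 genes had an unadjusted p under 0.05. All 13 protein genes lay below 0 with a median of -0.42. mt-Co1 was at 18271, 15622, 18512 and 18696 CPM at RT and at 15313, 11736, 12576 and 13362 CPM at TN. The groups did not overlap, for a change of -0.42 (edgeR adjusted p = 0.667). The share of all genes without overlap is not given here. In KO, edgeR called 0 members against 1.74% of all genes, while DESeq2 called 6 against 6.07% of all genes. In edgeR 8 members and 3311 of all 18933 genes had an unadjusted p under 0.05. The protein-gene median was -0.51, and mt-Nd4 came nearest at -0.69 (SE 0.18, edgeR adjusted p = 0.0588). The interaction called 0 members and 0% of all genes in edgeR, and 0 members and 0.0634% of all genes in DESeq2. In edgeR 1 member and 1439 of all 18933 genes had an unadjusted p under 0.05. These comparisons share groups: each KO RT library enters both the genotype comparison at RT and the temperature comparison in KO, and likewise for the other groups.

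Nuclear partners in eWAT gave a few calls in the same directions. In KO against WT at RT, 12 of 82 genes for complexes I, III, IV and V were higher, as were Sdha (0.56) and Sdhb (0.61) of complex II and the regulators Ppargc1a (1.30), a coactivator of mitochondrial biogenesis, and Esrra (0.44). Of all 18933 genes tested, 228 were higher and 593 lower in this comparison. Between temperatures in KO, 12 of 82 were lower at TN, including Cox8b at -1.50, and so were Lrpprc (-0.42), Fastk (-0.47), Esrra (-0.48) and Sdha (-0.54). Over all genes, 136 were lower and 194 higher there. Macrophage markers in eWAT summed to 509 to 714 CPM in KO RT, 692 to 978 in WT RT, 830 to 985 in KO TN and 1083 to 1773 in WT TN, and 1 library, WT RT 18, held epididymis markers at 939 CPM. The brown adipocyte markers, which include Cox8b, summed to 24.9 to 35.5 CPM in KO RT and 10.0 to 14.6 in KO TN, and to 14.0 to 39.2 in WT RT and 16.6 to 36.6 in WT TN, with Ucp1 below 1 CPM in both KO groups. Hepatocyte markers summed to 104 to 4197 CPM in KO RT, highest in library 16, 36.1 to 1375 in WT RT, 50.5 to 440.2 in KO TN and 23.5 to 1369 in WT TN. The 8 muscle markers summed to 11.7 to 17.9 CPM in KO TN and 22.7 to 36.3 in WT TN. Their part in these results was not tested.

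In liver, the organ of the hepatocyte deletion, no member was called in edgeR or in DESeq2 in any of the 5 comparisons. The shares of all genes called were 0.0853% for genotype at RT, 3.18% for genotype at TN, 0.0227% for temperature in WT, 0.114% for temperature in KO and 0% for the interaction in edgeR, and 1.02%, 6.31%, 0.426%, 1.99% and 0.0966% in DESeq2. Of 22 members tested, 4, 6, 1, 0 and 0 had an unadjusted p under 0.05 in edgeR, in that order. Of all 17594 genes tested, 1799, 3099, 1276, 1849 and 1290 did. The genotype comparison at TN had the lowest values, with a protein-gene median of -0.36 and 11 of 13 below 0, against a median of 0.05 over all genes. In the same comparison macrophage markers summed to 176 to 388 CPM in KO and 132 to 164 in WT. The 6 brown adipocyte markers summed to 33.1 to 63.6 CPM in KO and 86.2 to 101 in WT, with Ucp1 at 0 in both and Elovl3, which liver also expresses, at 31.7 to 47.9 and 73.4 to 83.0. Skeletal muscle markers summed to 1.41 to 2.40 CPM in KO and 0.158 to 0.342 in WT. None of these 3 lists overlapped between the genotypes. Their part in these results was not tested.

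mt-Cytb of complex III and mt-Nd4 and mt-Nd5 of complex I were lower in KO without overlap in that comparison, but did not pass. The share of all genes that separated in this way is not given here. With 4 libraries a group some genes separate by chance alone, so this may not be particular to the members. mt-Nd4 was at 2357, 2351, 2139 and 2182 CPM in KO TN libraries 2, 22, 4 and 5 and at 3417, 2579, 2991 and 3495 CPM in WT TN libraries 1, 24, 6 and 7, a change of -0.47 (SE 0.16, edgeR adjusted p = 0.111). mt-Cytb was at 5733, 5665, 5339 and 6301 CPM in KO and at 8544, 6330, 7496 and 8387 CPM in WT, a change of -0.42 (SE 0.15, edgeR adjusted p = 0.143). mt-Nd5 was at 1442, 2702, 1915 and 2795 CPM in KO and at 3480, 3935, 3244 and 3062 CPM in WT, a change of -0.63 (SE 0.22, edgeR adjusted p = 0.12). For mt-Cytb the nearest libraries of the genotypes were 6301 and 6330. mt-Co1, at -0.44 (edgeR adjusted p = 0.174), overlapped. Of the other complex I genes, mt-Nd1 at -0.36, mt-Nd2 at -0.27, mt-Nd6 at -0.06 and mt-Nd3 at 0.26 overlapped, and mt-Nd4l at -0.89 overlapped with plain totals but not with TMM. None of these passed.

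Nuclear partners in liver at TN were split between directions. Of 78 tested genes for complexes I, III, IV and V, 5 were higher in KO, among them Atp5l (0.87), Uqcrh (0.81) and Atp5e (0.72), and 2 lower, Ndufa10 (-0.52) and Ndufs1 (-0.42). Over all 17594 genes tested, 235 were higher and 325 lower. Sdha was lower at -0.55, and Tefm, which keeps the mitochondrial polymerase elongating, and Slirp were higher at 0.83 and 0.57.

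**Figure D5:**
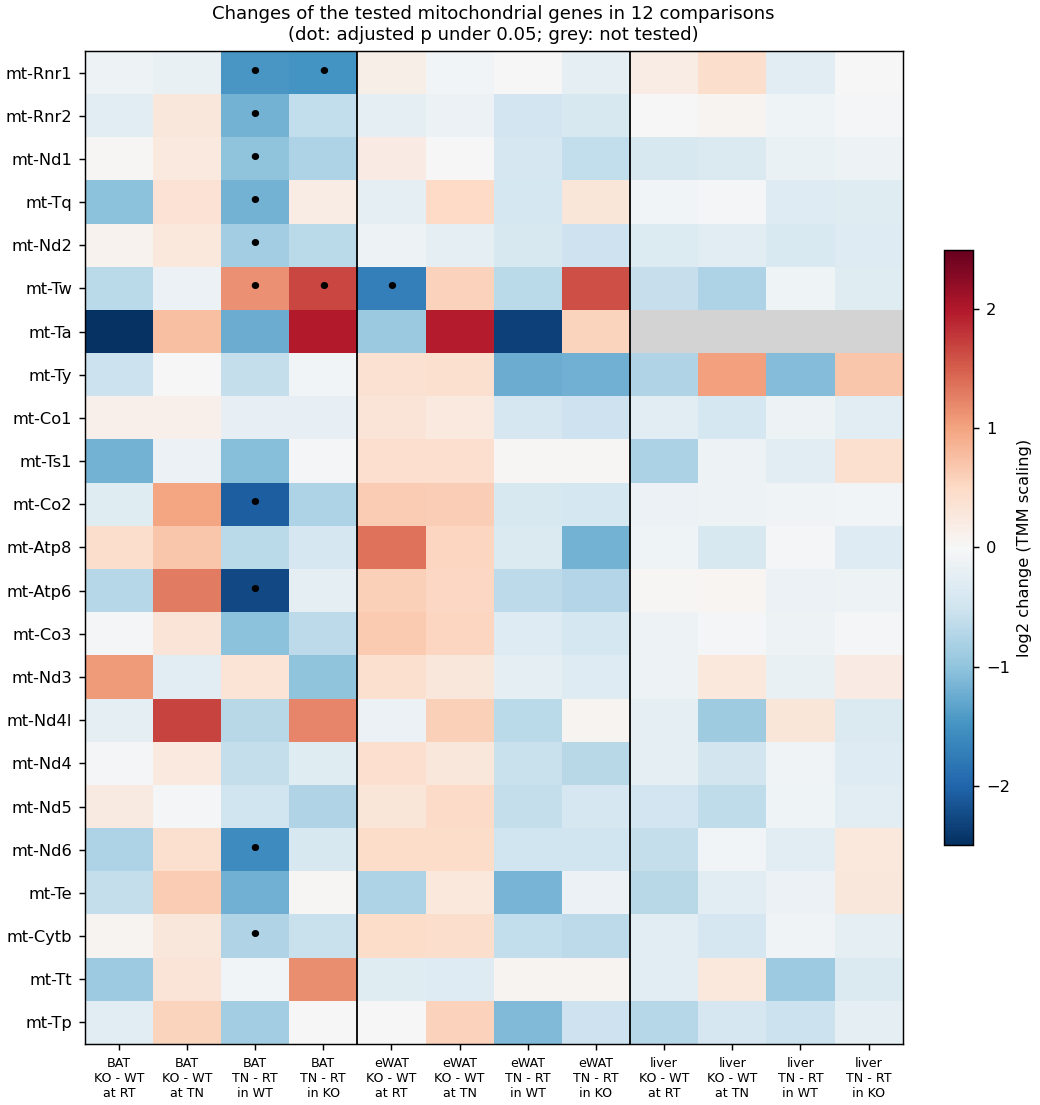
Log2 change of each member tested (rows, in genome order) in the 4 genotype and temperature comparisons of each tissue (columns), with a dot where the edgeR adjusted p is below 0.05 and grey where a gene was not tested. The dots lie in the BAT temperature columns and at mt-Tw in eWAT at RT, and no liver column has one.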

How the data were processed

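Total RNA from snap-frozen tissue was made into mRNA-seq libraries and sequenced in pairs on an Illumina NovaSeq, per the labels' protocols; whether they were selected by poly(A) or kept strand is not stated there. The authors deposited raw counts per Ensembl gene, made with fastp, STAR 2.6.1d and featureCounts 1.5.0-p3 on GRCm38 per the submitters' processing notes. Of 56748 identifiers, 52073 took a symbol from GENCODE M21 and 4675 did not. Groups came from the labels, and no file column of another sample was used. Counts of each tissue (16 libraries) were filtered with filterByExpr (minimum count 10), scaled by TMM and fitted with edgeR 4.0.16 quasi-likelihood tests (R 4.3.3) over its 4 groups; p-values were Benjamini-Hochberg adjusted over all 17594 genes tested in liver, 18032 in BAT and 18933 in eWAT, and 21910 in the fit to all tissues. DESeq2 1.42.0, other scalings and filters, and fits with libraries left out were alternatives. Tables were handled in Python 3.11.15 with pandas 2.3.3 and drawn with matplotlib 3.10.9. On simulated counts for the BAT temperature comparison in WT (18032 genes), the test recovered 20% of genes changed by 1 and 58% of genes changed by 2 on the log2 scale, and 1.27% of its calls were false. Only 100 genes were changed by each amount, whereas 32.5% of genes were called in the real comparison. The rates therefore need not hold for it.

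All 13 protein and 2 rRNA genes were eligible to be named, and tRNAs that passed the filter in at least 1 tissue; of each nuclear list, at most 3 called genes per direction by size of change at a mean of at least 1 CPM; and Agt once, as a check of the labels. The members and the nuclear and marker lists were chosen with earlier results of these data known. Sequence windows were 100 bases long and matched to GENCODE M21 transcripts only.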

Additional observations from a re-analysis of the deposited data

Results flagged for a closer look

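In 14 of 228 sets of 4 libraries (each a member or class share in 1 group), the highest or lowest library lay far from the other 3 by the test of Dixon at the 95% level. Chance alone gives about 5% of such sets. In BAT, WT TN 1 had 31.99% of its counts in the 37 genes and 31.42% in the protein genes, and mt-Co1 at 133763 CPM, each far above its group. WT RT 12 had mt-Nd6 at 710 CPM, far below its group, and mt-Nd4l at 145 CPM, far above it. KO TN 3 was high in mt-Co3 at 845 CPM, and KO TN 4 was low in mt-Cytb at 35962 CPM. In eWAT, KO RT 16 was low in the tRNA share at 0.00105% and in mt-Co2 at 85.2 CPM, KO RT 10 was high in mt-Rnr2 at 1034 CPM, and WT RT 13 was low in mt-Co1 at 15622 CPM. In liver, KO TN 5 had mt-Atp6 at 61.9 CPM, KO RT 16 had mt-Nd6 at 311 CPM and WT RT 18 had mt-Nd6 at 484 CPM, each the library farthest from its group. None of the 68 interaction tests of members passed in edgeR.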

How the results depend on the processing

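Most comparisons within a tissue had 0 members called in the main fit, and a recount that stayed at 0 counted as kept. The totals of kept recounts therefore say little about how stable the calls were. Of 133 recounts of called members with every library kept or 2 or more left out, 114 stayed within 1.5 times. So did 130 of 144 with 1 library left out. The rest follow, as members called. DESeq2 gave 2 for BAT genotype at RT (0 in edgeR), 7 for BAT temperature in KO (2) and 6 for eWAT temperature in KO (0). A fit to the 8 libraries compared gave 7 for BAT temperature in KO, 6 for WT (10) and 0 for eWAT genotype at RT (1). No filter gave 6 for BAT temperature in WT, 0 for eWAT genotype at RT, 1 for eWAT temperature in KO and 3 for liver against eWAT (7), and a filter at 1 CPM gave 1 for eWAT temperature in KO. Plain totals gave 4 for BAT temperature in KO, 5 for WT and 12 for liver against eWAT, where the direction reversed, with mt-Co1 at -0.23, mt-Co3 at -0.10, mt-Nd2 at -0.068 and mt-Tq at -0.039. Without WT RT 12 and WT TN 1 the counts were 3 for BAT genotype at RT, 7 for temperature in KO and 16 for WT. Without the muscle-high libraries they were 1 and 2 for temperature in KO and WT. Leaving out 1 library gave 0 to 3 for BAT genotype at RT, 4 to 13 for BAT temperature in WT, 0 to 2 for eWAT genotype at RT and 0 to 5 for eWAT temperature in KO. The tRNA share in BAT of KO mice gave a log2 ratio of 0.66, not 0.83, with mitochondrial and the 10 most abundant nuclear genes out of the total. All 99 recounts of shares within the 13-gene sum kept their direction, but they covered only comparisons whose groups did not overlap. In 88 of them 1 library was left out, which cannot turn the direction of such groups. In the other 11 only the 6 low genes left the sum. That outcome is therefore no check of these shares. Those recounts and both library exclusions were chosen after seeing the data. The cause of each shift was not tested.

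Counts of called nuclear genes moved as follows, in the order complexes I, III, IV and V, complex II, RNA handling, DNA copying, regulators, for those that moved. DESeq2: BAT genotype at RT 4 (complexes), 1 (RNA handling) and 1 (copying), from 0 each; BAT temperature in KO 3 regulators (1); BAT interaction 1 complex gene (0); eWAT genotype at RT 19 complex genes (12), 4 RNA handling (1) and 1 copying (0); eWAT genotype at TN 1 complex gene (0); eWAT temperature in KO 35 complex genes (12), 4 complex II (1) and 4 RNA handling (2), and in WT 1 RNA handling (0); liver genotype at TN 1 regulator (0) and liver temperature in KO 1 copying (0). RLE scaling gave 0 copying genes for BAT temperature in KO (1) and 3 RNA handling for eWAT genotype at RT (1). Plain totals gave, for BAT temperature in KO, 22 complex genes (50), 0 complex II (3), 3 RNA handling (10), 0 copying (1) and 2 regulators, now higher (1); in WT, 5 RNA handling (23) and 4 copying, mostly higher (7); for eWAT, 1 regulator for genotype at RT (2), 1 RNA handling (2) and 0 regulators (1) for temperature in KO; and for liver against eWAT 51 complex genes, mostly lower (64), and 2 complex II (4). Without WT RT 12 and WT TN 1, BAT genotype at RT gave 25 complex genes, 1 complex II, 1 RNA handling and 1 copying, from 0 each, and temperature in WT 3 copying (7). Without the muscle-high libraries, BAT genotype at RT gave 2 RNA handling and 1 regulator, from 0, and temperature in KO 9 complex genes (50), 0 complex II (3), 2 RNA handling (10), 0 copying (1) and 1 regulator, now higher.

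Replicate numbers recur only across tissues. Of 35 pairs with the same number, 1 had deviations correlated above 0.1 (median 0.0176, against -0.0066 over 157 pairs with different numbers). Such correlations between tissues cannot show whether a number stands for 1 mouse, and the labels do not say so. The main tissue fit treated these libraries as independent, though they may come from the same mice. With a replicate block the tissue fits called 23, 23 and 5 members, against 23, 23 and 7. Within a tissue no paired analysis was possible because the groups share no numbers.

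Depth limits mainly the tRNAs and mt-Atp8. Library preparation, strand and the treatment of reads with several matches bear on every level given here, and most on the genes with nuclear copies.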

Other observations

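The nuclear copy Gm28438, which differs from mt-Nd3 at the single substitution T3C printed above, had a few libraries far above the rest, and it was singled out after its values were seen. In BAT it was at 313 to 2672 CPM in 6 libraries and at 27.3 to 111 CPM in the other 10. Its change at TN against RT in BAT was -5.15 in WT (edgeR adjusted p = 0.0367) and 0.11 in KO (edgeR adjusted p = 0.973). In eWAT it was at 165 CPM in KO RT 16 and at 5.81 to 16.0 CPM in the other 15. In liver it was at 291 CPM in WT RT 18 and at 4.94 to 9.90 CPM in the other 15. With that copy added, the mt-Nd3 sum reached 15.5% of mt-Co1 per length in 1 library, against medians of 1.16% in BAT, 0.476% in eWAT and 0.456% in liver. The highest sums for the other copied members were 8.03% for mt-Co2, 6.41% for mt-Atp6, 4.28% for mt-Co3 and 2.21% for mt-Nd4l.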
